A study of Homo sapiens with 12 samples.

Results

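The alpha and beta globin loci were examined for regions of H2A.Z, a histone H2A variant, and of H2A.Zac, its acetylated form. The members are the 10 globin genes of the 2 clusters, of 20046 protein-coding genes in GENCODE release 44, and were taken by name. All listed regions were used that reached at least 1 bp into the alpha cluster (HBZ to HBQ1) or the beta cluster (HBB to HBE1), each with 70 kb to either side so that the upstream control regions were included. These windows span chr16:82644-251179 and chr11:5155464-5339945 in hg38, and hold 100 of the 158028 regions in the 6 lists, 49 in the alpha window and 51 in the beta window.

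The ChIP-seq libraries came from K562, a human chronic myeloid leukemia line, whose endogenous EP400 was tagged on both alleles at its C terminus for degradation with dTAGV-1. EP400 is the scaffold of TIP60, the complex that exchanges H2A.Z into nucleosomes and acetylates histones. The cells were rescued from the AAVS1 safe harbor locus with exogenous WT EP400, or with Delta-TRRAP EP400 (ΔTRRAP), which lacks the SANT and HD domains that hold the TRRAP subunit. All cells, WT included, carried the tagged endogenous protein and were treated with 500 nM dTAGV-1 for 24 h. Input, H2A.Z and H2A.Zac were each sequenced in 2 biological replicates per line, 12 libraries in all, and 1 clone represents each line, so that clone and genotype cannot be told apart. For each mark the authors compared the lines once, on merged replicates, and a region was listed as lost (higher in WT), gained (higher in ΔTRRAP) or unchanged, the log10 likelihood ratio being at least 3 for a change. This ratio depends on depth as well as on the difference, so it is not a fold change, and without a value per replicate no spread could be given and no test made. How deeply each library was sequenced cannot be read from the lists. Parts of 1 peak can be listed as several regions, also in different classes.

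Globin genes are ordered along each cluster roughly as they are used in development, and expression passes from embryonic to fetal and adult genes. The beta genes depend on a locus control region upstream of HBE1, a group of nuclease-hypersensitive sites bound by erythroid factors such as GATA1, TAL1 and NF-E2. The alpha genes depend on elements upstream of HBZ, several of them in introns of NPRL3, the neighboring gene for a subunit of GATOR1, a regulator of mTORC1. K562 cells are known for making embryonic and fetal globin and little adult beta globin. No file used here marks single control elements, so no region was assigned to one.

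The labels call the cells lymphoblasts, and marker genes were looked up within 1 kb of their transcription start sites (TSSs). Of 4 erythroid genes, TAL1, KLF1 and EPOR had an H2A.Zac region and GATA1 had no region of either mark, and KLF1 and EPOR also had H2A.Z. Of 4 lymphoid genes, CD79A and CD3E had regions of both marks, and PAX5 and CD7 had none. Of all protein-coding genes, 63.9% had H2A.Zac and 62.2% H2A.Z. Regions were thus listed at markers of both kinds, and the lists alone do not settle the cell type.

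Most H2A.Zac regions inside NPRL3 and upstream of HBE1 were gained, while those between the NPRL3 promoter and HBZ were unchanged. Some of the H2A.Zac regions at the adult alpha genes and between HBD and HBG1 were lost. For these stretches 4 sequences are shown, because they carry the motifs by which erythroid control regions are known, or lie where the highest ratios were found. They were chosen with the data in view. They are read from the plus strand of hg38 in lower case, with capitals for matches, on either strand, to AGATAA (bound by factors such as GATA1), TGAGTCA (the core bound by NF-E2 and AP-1), the MAF recognition element (that core preceded by TGC, which it overlaps) and CCACCC (KLF factors).
NPRL3 intron 3, chr16:120027-120146: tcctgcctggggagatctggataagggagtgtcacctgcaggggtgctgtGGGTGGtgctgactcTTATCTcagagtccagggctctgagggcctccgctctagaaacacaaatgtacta
upstream of HBE1, chr11:5280707-5280826: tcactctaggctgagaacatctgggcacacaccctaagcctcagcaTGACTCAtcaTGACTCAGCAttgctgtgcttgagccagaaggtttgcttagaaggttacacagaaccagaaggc
upstream of HBE1, chr11:5284852-5284971: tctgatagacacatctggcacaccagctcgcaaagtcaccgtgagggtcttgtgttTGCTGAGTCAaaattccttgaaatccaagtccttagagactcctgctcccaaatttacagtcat
upstream of HBBP1, chr11:5243671-5243790: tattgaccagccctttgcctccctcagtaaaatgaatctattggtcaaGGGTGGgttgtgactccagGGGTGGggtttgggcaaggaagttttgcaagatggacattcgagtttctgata
The first lies in the gained H2A.Zac region with the highest ratio of the alpha window, and the last in the lost region with the highest ratio of both windows. The middle pair each hold a MAF recognition element. A search from 1 kb upstream of HBE1 to the end of the window gave 3 such elements. The one at chr11:5284908-5284917 lay inside a gained H2A.Zac region (ratio 6.51), the one at chr11:5280763-5280772 lay 71 bp outside a gained region (9.52), and the one at chr11:5313611-5313620 was 21926 bp from the nearest region.

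In the alpha window, 28 H2A.Zac regions covered 14.5% of the bases. Of these, 8 were gained and 5 lost, or 28.6% and 17.9%, beside 26.3% gained and 25.9% lost among all 94586 H2A.Zac regions. The 21 H2A.Z regions covered 7.67%. Of these, 6 were lost (28.6%) and 0 gained, beside 19.8% lost and 14.1% gained among all 63442 H2A.Z regions. In the beta window, 40 H2A.Zac regions covered 15.6% of the bases, with 15 gained and 5 lost, or 37.5% and 12.5%. The 11 H2A.Z regions of the beta window covered 4.47%, with 1 gained and 0 lost. Neighboring regions are not independent of each other, and these shares are descriptions of the windows. The gained H2A.Zac regions of the beta window covered 13503 bp against 3015 bp for the lost ones, and those of the alpha window 8851 bp against 3304 bp. The balance depended on the span, since without the flanks 0 were gained and 4 lost in each cluster, and with flanks of 100 kb the alpha window had 10 gained and 11 lost. When regions within 1 kb were merged, 5 were gained and 4 lost in the alpha window, and 8 and 4 in the beta window.

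**Figure D1:**
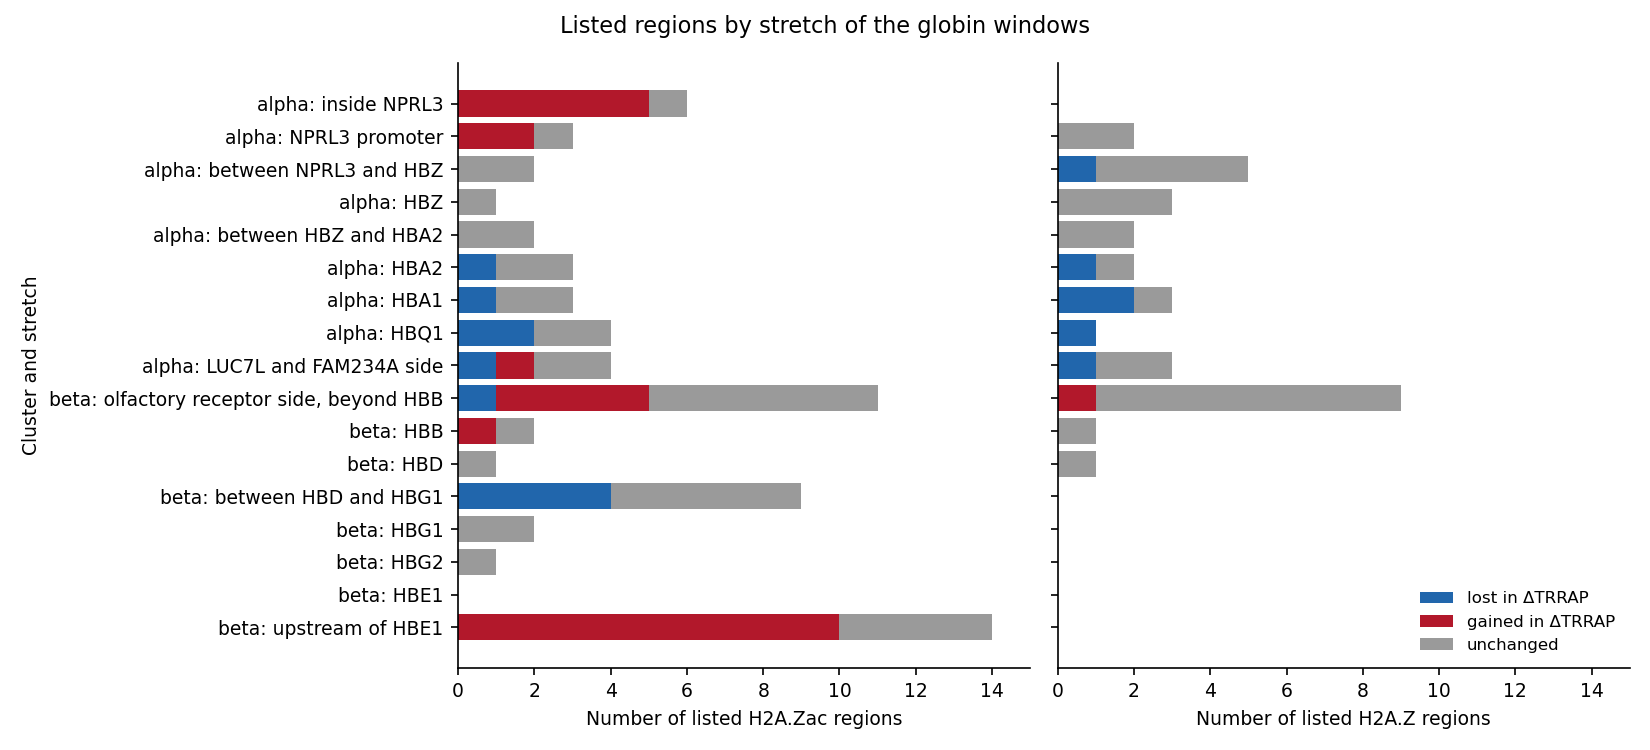
Number of listed H2A.Zac regions (left) and H2A.Z regions (right) in each stretch of the alpha and beta windows, colored by class (lost, gained or unchanged in ΔTRRAP). Gained H2A.Zac regions are most numerous upstream of HBE1 (10 of 14) and inside NPRL3 (5 of 6), where no H2A.Z region is listed.

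The alpha upstream stretch was examined first. Inside NPRL3, more than 1 kb from its TSS, 5 of 6 H2A.Zac regions were gained and none lost, over 30.8 kb from chr16:106786 to 137553. Of all H2A.Zac regions more than 1 kb from a TSS, 24.3% were gained and 31.3% lost. The highest ratio was 10.7, for chr16:119538-121364 in intron 3, the region of the first sequence above. A region of 2287 bp at chr16:112755-115041, over exon 6 and intron 5, had a ratio of 9.07. The others were chr16:118612-119357 around exon 4 (8.60), chr16:106786-107158 in intron 7 (7.15) and chr16:136213-136827 in intron 2 (5.57). The unchanged region, chr16:137039-137553 in intron 2, had a ratio of 0.543. The 5 gained ratios lay on both sides of 6.87, the median of all gained H2A.Zac regions. H2A.Z was not listed anywhere in this stretch.

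At the promoter of NPRL3, both marks were present. The gained H2A.Zac region chr16:138643-139672 covered the TSS with a ratio of 4.90, and chr16:137547-138280, over exon 2, was gained with 5.87. The region between them, chr16:138272-138882, also reached the TSS and was unchanged (1.39), and so were both H2A.Z regions (0.219 and 0.247). Between this promoter and HBZ, the broad H2A.Zac region chr16:142404-145424 was unchanged (0.691) over 3021 bp. It lay over 4 H2A.Z regions, of which chr16:142957-143488 was lost with a ratio of 3.69, near the cutoff.

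**Figure D2:**
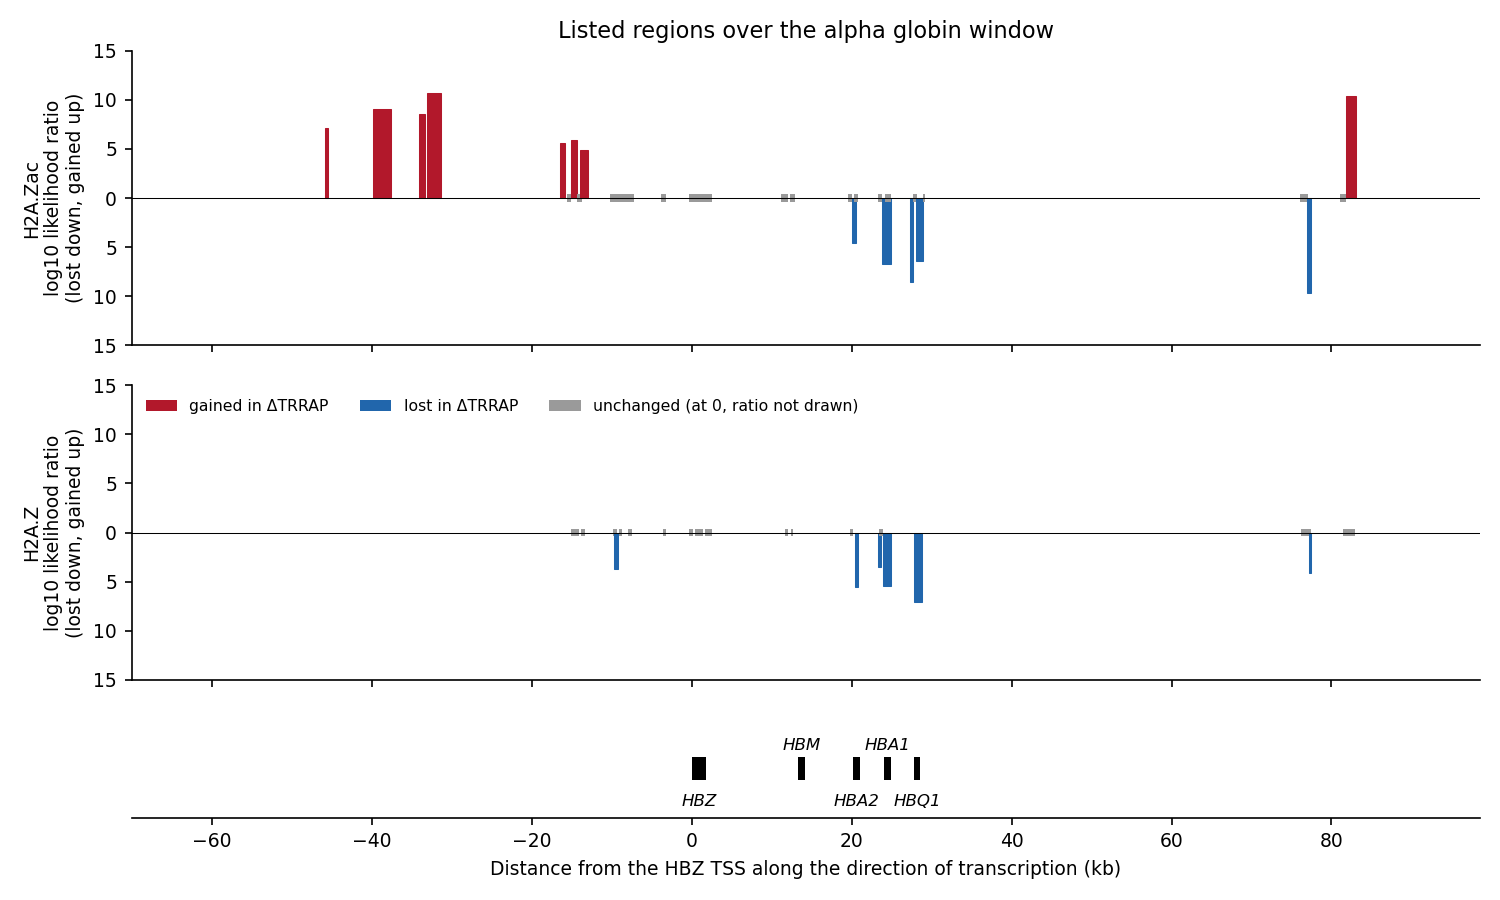
Listed H2A.Zac (top) and H2A.Z (middle) regions by distance from the HBZ TSS in kb, with globin genes below; bar height is the log10 likelihood ratio, drawn up for gained, down for lost, and unchanged regions are marked at 0. The gained regions of NPRL3 lie upstream of HBZ on the left, regions of both marks are lost at HBA2, HBA1, HBQ1 and, on the right, upstream of LUC7L, 1 H2A.Z region is lost left of HBZ, and HBZ itself is unchanged.

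Among the alpha genes, the embryonic gene HBZ (zeta globin, ENSG00000130656, chr16:152644-154503) was unchanged in both marks. A single H2A.Zac region of 2930 bp, chr16:152308-155237, covered all 3 exons with a ratio of 0.494. Its 3 H2A.Z regions had ratios of 0.152, 0.735 and 0.243. HBM (mu globin, ENSG00000206177, chr16:165978-166764) had no region over its body. The nearest regions lay 441 bp (H2A.Zac, ratio 1.07) and 617 bp (H2A.Z, 1.86) upstream, over the pseudogene HBZP1, and were unchanged.

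The fetal and adult alpha globin genes HBA2 and HBA1, and HBQ1, the theta globin gene, were the globin genes with a lost region within 1 kb of the TSS, and they had one in both marks. At HBA2 (ENSG00000188536, chr16:172876-173710), the lost H2A.Zac region chr16:172648-173181 covered the TSS with a ratio of 4.58. A lost H2A.Z region in the gene, chr16:173079-173410, overlapped its end and had 5.50. At HBA1 (ENSG00000206172, chr16:176680-177522), lost regions covered the TSS in both marks, chr16:176479-177518 for H2A.Zac (6.73) and chr16:176567-177535 for H2A.Z (5.44). A second lost H2A.Z region upstream, chr16:176010-176312, had a ratio of 3.54. At HBQ1 (ENSG00000086506, chr16:180459-181179), the lost H2A.Z region chr16:180398-181453 covered the whole gene with 7.04. The lost H2A.Zac regions lay upstream of it, chr16:179956-180334 (8.53), and over exons 2 and 3, chr16:180699-181574 (6.43), while the H2A.Zac region over the TSS itself, chr16:180329-180764, was unchanged (1.22). Of the 4 lost regions of each mark at these genes, 1 lay above the median of all lost regions, which was 8.27 for H2A.Zac and 5.95 for H2A.Z. At each of HBA2 and HBA1, 2 H2A.Zac regions and 1 H2A.Z region were unchanged. Those at HBA1 in part overlapped lost regions of their own mark, as did the H2A.Zac region chr16:172987-173414 at HBA2. The others at HBA2, chr16:172258-172647 (H2A.Zac) and chr16:172441-172797 (H2A.Z), overlapped no lost region of their own mark.

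HBA2 and HBA1 are near-identical copies, with 96.7% identity over their aligned transcribed sequence. Of all 100-base stretches in the lost H2A.Zac regions, 77.0% at HBA2 and 61.3% at HBA1 occur again elsewhere in the window. In the lost H2A.Z regions this share was 88.4% at HBA2, and 37.7% and 56.2% at HBA1. In the unchanged regions of both marks at these genes it was 51.3 to 100%. The placement of reads between the copies is thus uncertain where the mate of a pair does not settle it. In the lost regions of HBQ1 this share was 0%. In the unchanged regions of HBZ it was 30.0% for H2A.Zac, and 11.8%, 77.3% and 0% for H2A.Z, so the same limit holds there.

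Just beyond HBQ1, the H2A.Zac region chr16:181518-181824 was unchanged (0.755). No further region was listed until LUC7L and FAM234A, genes of a splicing factor and of a membrane protein. Over the TSS of LUC7L itself, regions of both marks were unchanged, chr16:228721-229712 for H2A.Zac (1.07) and chr16:228787-230040 for H2A.Z (0.733). At their upstream edge, and in part overlapping them, lay a lost region of each mark, chr16:229627-230101 for H2A.Zac (9.64) and chr16:229817-230116 for H2A.Z (4.08). At the TSS of FAM234A, H2A.Zac was gained at chr16:234490-235728 (10.4), on an unchanged H2A.Z region (0.555).

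The beta upstream stretch held 14 H2A.Zac regions between 2.52 and 21.7 kb upstream of the HBE1 TSS (chr11:5272461-5291685). Of these, 10 were gained (71.4%) and none lost, beside 24.3% and 31.3% among all H2A.Zac regions more than 1 kb from a TSS, and the H2A.Z lists were empty there. The highest ratio was 9.52 for chr11:5280843-5281988, which begins 71 bp from the MAF recognition element of the second sequence. The region chr11:5284286-5284949, which holds the third sequence in part, had 6.51. Closest to HBE1 were chr11:5272536-5273594 (6.33), chr11:5274104-5275873 (7.12, 1770 bp) and chr11:5276563-5277435 (4.71). Farther upstream lay chr11:5283279-5283990 (4.89), chr11:5285147-5285579 (7.68), chr11:5285749-5286336 (5.89), chr11:5287319-5287733 (3.98) and chr11:5290702-5291685 (7.74). The median of the 10 ratios was 6.42, just under the 6.87 of all gained H2A.Zac regions. Of the 4 unchanged regions, the widest was chr11:5287782-5290079, with a ratio of 0.600 over 2298 bp. Another, chr11:5272461-5272791, had 2.38, the highest of any unchanged region in either window. From chr11:5291685 to the end of the window no region was listed.

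**Figure D3:**
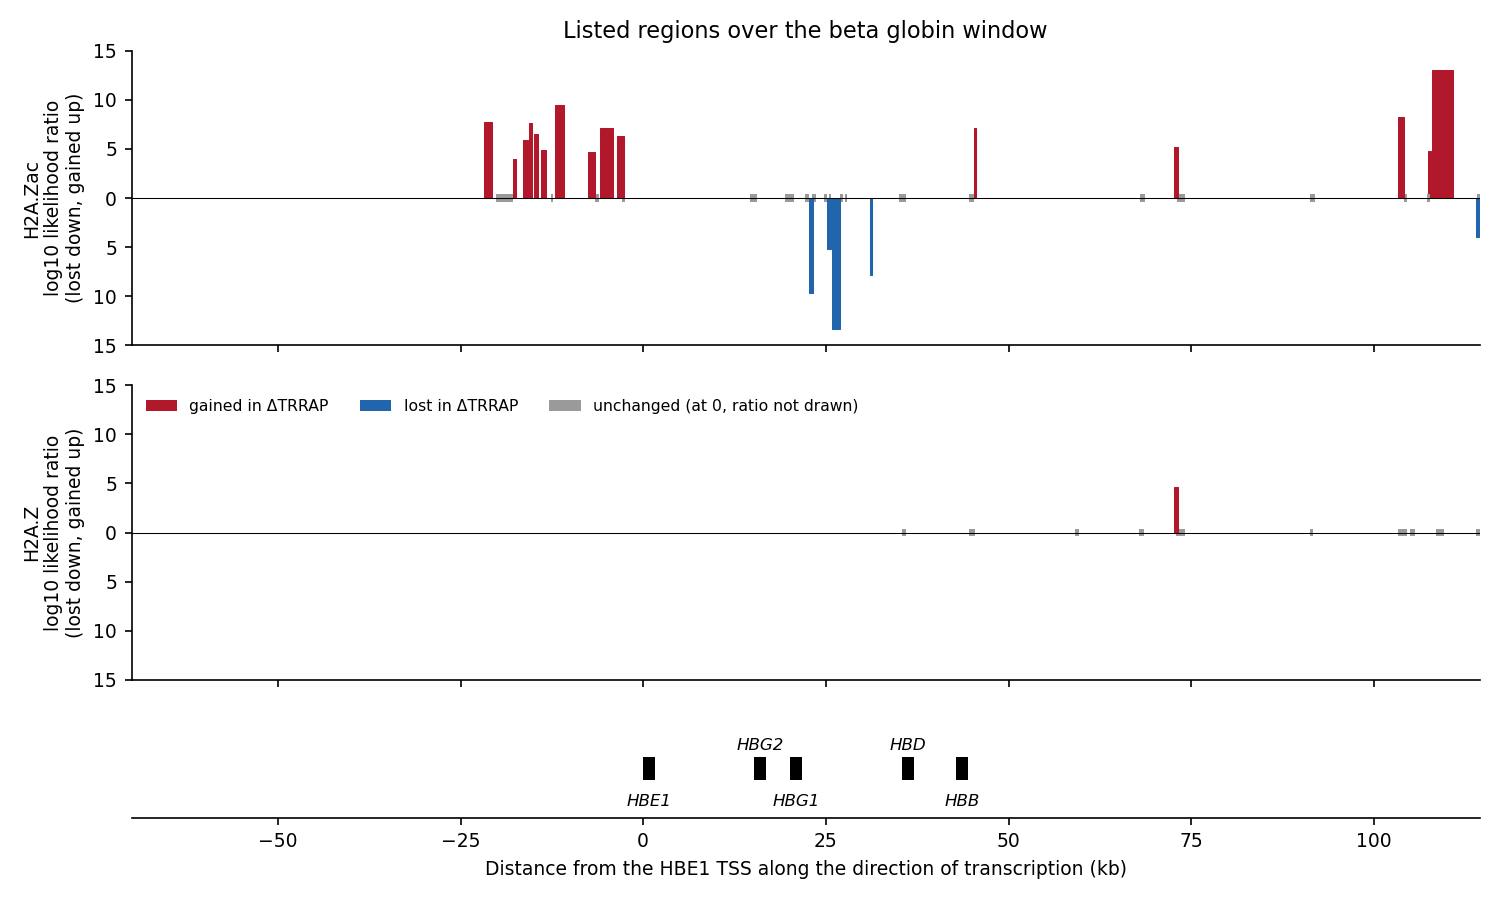
Listed H2A.Zac (top) and H2A.Z (middle) regions by distance from the HBE1 TSS in kb along the direction of transcription, with globin genes below; bars as log10 likelihood ratios, gained up, lost down, unchanged at 0. The 10 gained H2A.Zac regions upstream of HBE1 lie left of 0, 4 of the 5 lost ones lie between HBG1 and HBD with the fifth at the right edge, and H2A.Z regions appear only from HBD onward.

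Among the beta genes, none had a lost or gained region within 1 kb of the TSS of its canonical transcript. HBE1 (epsilon globin, embryonic, ENSG00000213931, chr11:5268345-5269945) had no region of either mark over its body or TSS. The fetal gamma globin genes HBG2 (ENSG00000196565, chr11:5253188-5254781) and HBG1 (ENSG00000213934, chr11:5248269-5249857) each had an unchanged H2A.Zac region over the TSS, chr11:5254360-5255355 (0.397) and chr11:5249327-5250542 (0.334), and no H2A.Z. The nearest H2A.Z region was 20.2 kb from the TSS of HBG2 and 15.3 kb from that of HBG1. These genes are 97.8% identical, and 58.4% and 48.0% of the 100-base stretches in their regions are repeated in the window. HBB (adult beta globin, ENSG00000244734, chr11:5225464-5227071) also had no region over its body. Downstream of its 3′ end, H2A.Zac was gained at chr11:5224393-5224646 (7.14) and unchanged at chr11:5224639-5225357 (0.389), with an unchanged H2A.Z region over both (0.222).

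HBD (delta globin, a minor adult gene, ENSG00000223609, chr11:5232838-5234483) was the beta gene with both marks over its TSS. Its H2A.Zac region chr11:5233961-5234999 had a ratio of 0.760 and its H2A.Z region chr11:5234030-5234568 had 0.576, both unchanged. Its promoter is shown because these regions reach into it. The RefSeq promoter table (GRCh38.p14) held HBD and HBM, 2 of the 10 genes. The 150 bases before the RefSeq start of HBD, on the minus strand at chr11:5234484-5234633, hold 1 match to AGATAA in capitals, on the opposite strand. Of all 35116 promoters in the table, 5.17% hold such a match in the same 150 bases.
HBD promoter: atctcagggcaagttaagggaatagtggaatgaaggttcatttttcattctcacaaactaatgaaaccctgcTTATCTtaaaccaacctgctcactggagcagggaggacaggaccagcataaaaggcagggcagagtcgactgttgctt

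**Figure D4:**
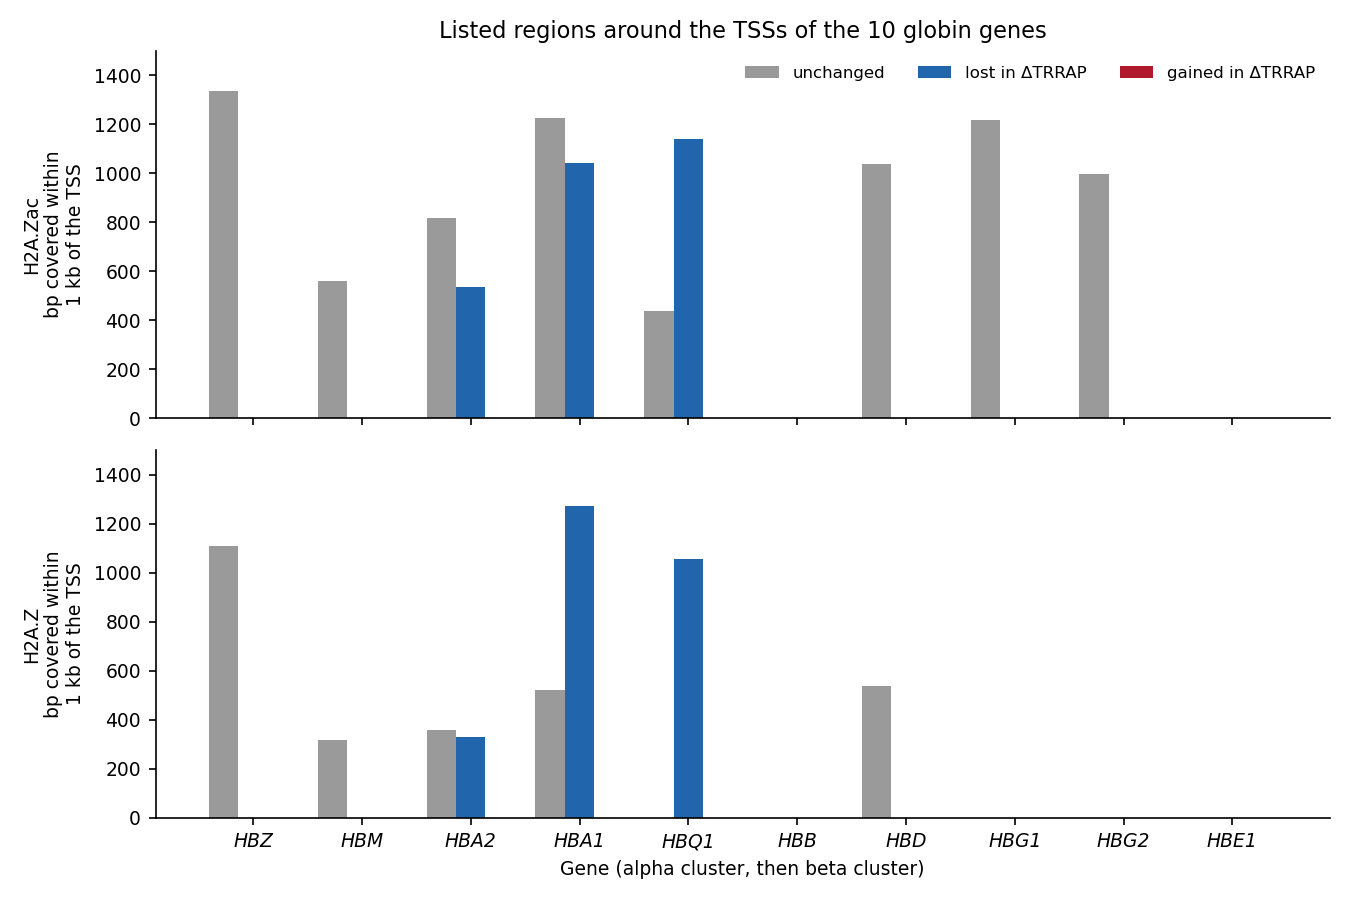
Base pairs covered by listed H2A.Zac (top) and H2A.Z (bottom) regions within 1 kb to each side of the TSS of each globin gene, by class; classes can overlap, so the bars of 1 gene are not additive. Lost regions are seen at HBA2, HBA1 and HBQ1 in both marks, gained regions at no gene, and HBB and HBE1 have neither mark.

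Counted by gene, 8 of 10 TSSs had an H2A.Zac region within 1 kb and 6 of 10 had H2A.Z. Among all protein-coding genes these shares were 63.9% and 62.2%. Lost regions without gained ones were found at 12.2% of all protein-coding genes for H2A.Zac and at 6.19% for H2A.Z. Gained regions without lost ones were found at 32.2% and 13.5%. All 3 globin genes with a lost region are neighbors in 1 cluster, and the 7 others had no changed region at the TSS. These counts hold for the canonical transcripts. The longest record of HBZ starts at chr16:142728, close to the lost H2A.Z region upstream of the gene, and that of HBD at chr11:5243657, inside the lost H2A.Zac region at HBBP1.

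Between HBD and HBG1, more than 1 kb from either gene, 4 of 9 H2A.Zac regions (44.4%) were lost and none gained, again with no H2A.Z region. Among all H2A.Zac regions, 25.9% were lost and 26.3% gained, and 31.3% and 24.3% of those more than 1 kb from any TSS. The second pair is not a close match, since regions of this stretch reach the starts of other transcripts. This stretch holds HBBP1, a beta globin pseudogene that is transcribed, and BGLT3, a long noncoding RNA. The region chr11:5242979-5244105, over exons 1 and 2 of HBBP1 and the sequence before its start, had a ratio of 13.4, above 75.4% of all lost H2A.Zac regions. The last sequence above comes from it, with 2 KLF matches upstream of HBBP1. A lncRNA on the same strand overlaps HBBP1, so the region cannot be given to either alone. The region chr11:5244266-5244855, which reaches BGLT3, had 5.19. The remaining lost regions were intergenic, chr11:5246744-5247237 (9.65), 2620 bp from the HBG1 TSS, and chr11:5238642-5238967 (7.87). The 5 unchanged regions of this stretch had ratios from 0.395 to 1.68. Directly beside the lost region nearest to HBG1, and within 1 kb of the 3′ end of that gene, chr11:5247238-5247743 was unchanged as well (1.34).

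On the far side of HBB, toward the olfactory receptor genes, 4 of 11 H2A.Zac regions were gained and 1 lost, beside 26.3% and 25.9% of all H2A.Zac regions. The gained region chr11:5159189-5161935 had the highest gained ratio of both windows, 13.0 over 2747 bp, on an unchanged H2A.Z region (0.595). The others were chr11:5165864-5166707 (8.23), chr11:5162106-5162577 (4.81) and chr11:5196722-5197263 (5.21). The last of these nearly coincided with the single gained H2A.Z region, chr11:5196723-5197272 (4.63). The lost region, chr11:5155536-5156013 (4.01), lay upstream of OR52A1.

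**Figure D5:**
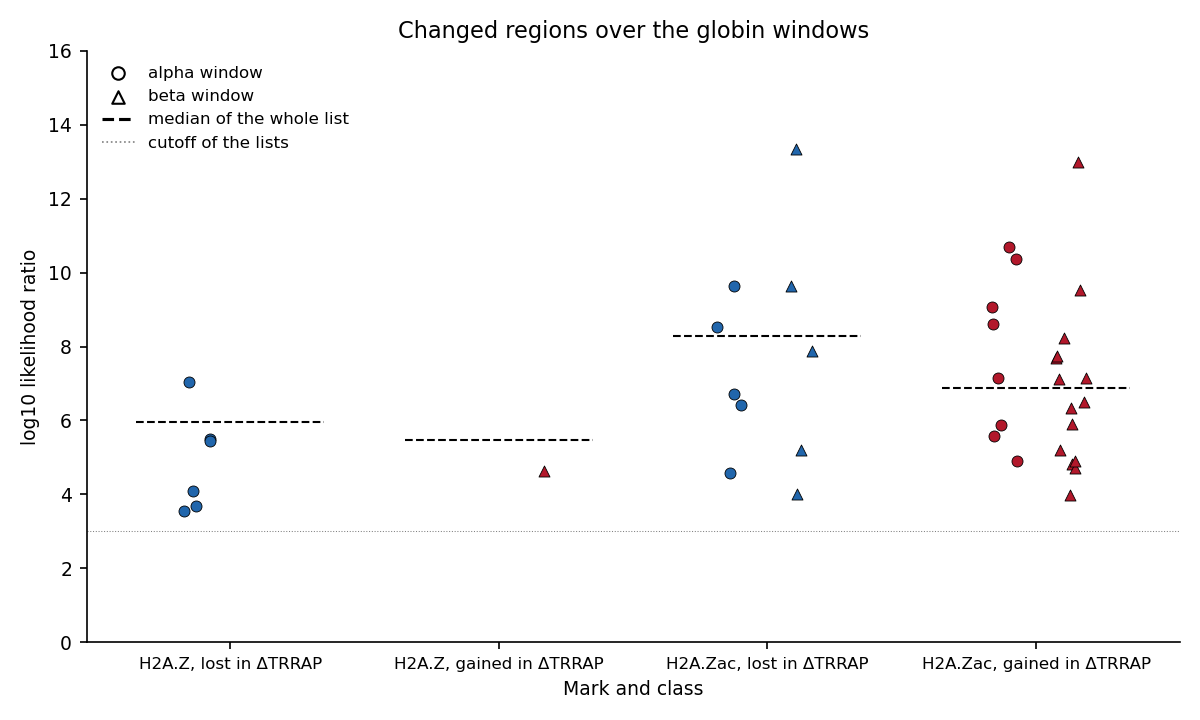
Log10 likelihood ratio of each changed region in the alpha window (circles) and beta window (triangles), by mark and class; dashed lines are the medians of the whole lists and the dotted line is the cutoff of 3. The highest points are 13.4 (lost) and 13.0 (gained), both H2A.Zac in the beta window, and 1 H2A.Z region is gained.

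The marks were compared by position. Of the 68 H2A.Zac regions in both windows, 32 (47.1%) had at least 25% of their length on an H2A.Z region, beside 60.5% in all lists. Of the 32 H2A.Z regions, 30 (93.8%) lay on H2A.Zac, beside 82.8%. Among the 23 gained H2A.Zac regions, 7 lay on H2A.Z and 16 touched no H2A.Z region at all. Of the 10 lost ones, 5 lay on H2A.Z and the other 5 touched none. In all lists, 57.1% of gained and 55.0% of lost H2A.Zac regions lay on H2A.Z, and 43.4% and 50.4% of those more than 1 kb from a TSS. All 6 lost H2A.Z regions and the gained one lay on H2A.Zac.

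Base composition differed along the loci. The GC content was 51.4% in the alpha window and 38.2% in the beta window. It was 48.6 to 56.0% in the H2A.Zac regions inside NPRL3 and 36.3 to 50.5% in those upstream of HBE1, which were mostly gained. Between HBD and HBG1 it was 34.1 to 53.0%, and 38.3 to 46.7% in the 4 lost regions there. The gained regions upstream of HBE1 had 36.7 to 50.5%, so the ranges of gained and lost regions overlapped in the beta window. All these gained regions but the one with 50.5% had at most 43.9%. All these lost regions but the one with 38.3% had at least 44.2%. The lost H2A.Zac regions of HBA2 and HBA1 had 73.2% and 70.4%. Those of HBQ1 had 54.9% and 71.5%, and the one upstream of LUC7L had 43.6%. Gained and lost regions thus overlapped in GC content in the alpha window as well. The part of GC content in the classes was not tested.

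Matches to short motifs were counted in the central 300 bp of each region. AGATAA was found in 11 of 68 H2A.Zac regions of both windows, beside 14.6% of all H2A.Zac regions, TGAGTCA in 3 (6.58% of all) and CCACCC in 18 (29.9% of all). Of the 32 H2A.Z regions, 17 held CCACCC (30.5% of all), 3 AGATAA (13.0% of all), 1 TGAGTCA (5.73% of all) and 5 part of the CTCF motif (11.7% of all). Part of the CTCF motif was matched in 10 of the 68 H2A.Zac regions (10.8% of all) and the MAF recognition element in none (0.532% of all). Of the MAF recognition elements printed above, the one at chr11:5284908-5284917 lies away from the center of its region. The one at chr11:5280763-5280772 lies 71 bp outside the nearest region. Among the 10 gained regions upstream of HBE1, 1 had a central AGATAA, 1 had TGAGTCA and 2 had CCACCC, and among the 5 gained inside NPRL3, 1 had CCACCC and 0 had AGATAA, since the match printed above for NPRL3 lies outside the central 300 bp. Of all H2A.Zac regions more than 1 kb from a TSS, 17.3% had a central AGATAA.

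The surroundings were counted for comparison. In the 1 Mb to each side of the alpha window, which on the upstream side is cut short by the end of the chromosome, 2 of 15 changed H2A.Z regions (13.3%) had been gained, as had 22 of 49 for H2A.Zac (44.9%). Around the beta window, these were 6 of 10 (60.0%) and 18 of 33 (54.5%). Over whole chromosome 16, the gained share of the changed regions was 41.3% for H2A.Z and 50.3% for H2A.Zac, and over chromosome 11 it was 40.3% and 51.2%.

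Genes that regulate globin or belong to the red cell were looked up as well, 14 in all. Within 1 kb of the TSS, H2A.Zac had gained regions at 7 genes, lost ones at 1, only unchanged ones at 2 and no region at 4. Gained regions without lost ones were found at 32.2% of all protein-coding genes. H2A.Z was gained at 4, lost at 1, unchanged at 3 and not listed at 6, beside 13.5%. The 1 gene with loss was AHSP, the chaperone of free alpha globin, with ratios of 13.8 for H2A.Zac and 7.83 for H2A.Z. Both marks were gained at LIN28B, which favors fetal globin (8.43 and 6.81), MYB, which holds fetal globin back (6.52 and 5.88), ZBTB7A, a repressor of gamma globin (10.9 and 3.49), and LMO2, a bridging partner of TAL1 (4.12 and 3.82). H2A.Zac alone was gained at LDB1, which joins the locus control region to globin promoters (8.61), TAL1 (7.28), and SLC4A1, which encodes a red cell membrane protein (6.09). Unchanged regions of the same mark lay beside the changed ones at most of these genes. For H2A.Zac this held at all genes with a change but SLC4A1, and for H2A.Z at all but MYB. BCL11A, the main repressor of gamma globin, had an unchanged H2A.Z region and no H2A.Zac, and GATA1, ALAS2 and EPB42 had neither mark.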

How the data were processed

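H2A.Z and H2A.Zac ChIP-seq and input were made in the WT and ΔTRRAP lines, grouped as labelled. Per the study's methods and the submitters' processing notes, the authors aligned reads to hg38 (Bowtie2 2.4.5), called peaks (MACS2 2.2.7.1), merged replicates and ran MACS2 bdgdiff between the lines, scaled by effective depth. Only regions with 25% or more of their length inside reproducible peaks (IDR up to 0.05, merged with bedtools 2.30.0) were kept, by bedops. The unit of the 6 deposited lists is a score, the authors' log10 likelihood ratio, at least 3 for changed regions and under 3 for unchanged ones. The methods name no filter on mapping quality.

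Here regions were read as listed and joined to GENCODE 44, a later release than that of the study. Ensembl canonical transcripts set gene and cluster ends, because other transcripts of HBE1, HBG2, HBZ, HBM and HBD run far upstream. TSS windows reached 1 kb to each side, and a region lay on the other mark when at least 25% of it was covered. The windows, genes, lists and motifs were chosen with earlier results of these data known. Named were the 10 globin genes, genes of the windows with a listed region, and 14 regulators and red cell genes, with values for those with a changed region. Some genes and 1 sequence first chosen are not reported here. Overlaps of 2000 simulated regions were checked against bedtools and 0 differed. Alternatives were other flanks, cutoffs, widths, merging within 1 kb, TSS windows and overlaps. Python 3.11.15, numpy 2.4.6, matplotlib 3.10.9, biopython 1.88, samtools 1.23.1 and bedtools 2.31.1 were used. Signal tracks, input libraries and RNA were not analysed here.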

Additional observations from a re-analysis of the deposited data

How the results depend on the processing

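No paired analysis was possible because the lists hold no value per replicate, and for the same reason no replicate could be left out. Of 64 values of 12 counts under the alternatives, 46 stayed within 1.5 times the main count, among them all those for TSS windows and overlaps, and 18 moved. Without the flanks, gained H2A.Zac regions fell from 8 to 0 in the alpha cluster and from 15 to 0 in the beta cluster, and the gained H2A.Z region of the beta window was lost (0), since all these regions lie outside the spans from HBZ to HBQ1 and from HBB to HBE1. With flanks of 100 kb, lost H2A.Zac regions of the alpha window rose from 5 to 11 and gained ones from 8 to 10, which turned the balance; without flanks it was 4 lost against 0 gained. At a likelihood ratio of at least 5, the lost H2A.Z regions of the alpha window fell from 6 to 3 and the gained one of the beta window to 0. At a ratio of at least 10, H2A.Z counts were 0 lost in the alpha window and 0 gained in the beta window, and H2A.Zac counts were 0 lost and 2 gained in the alpha window and 1 lost and 1 gained in the beta window. With regions of at least 500 bp only, lost regions were 3 for each mark in the alpha window and 2 for H2A.Zac in the beta window. Merging regions within 1 kb gave 5 gained H2A.Zac regions in the alpha window and 8 in the beta window. With gene extents over all transcripts, an alternative chosen after seeing the data, the beta window had 1 lost H2A.Z region in place of 0. Depth may limit every count, since sequencing depth is not known and weaker differences could be listed as unchanged. This was not tested.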
